A study of Homo sapiens with 14 samples.

Results

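The 36 genes described here encode proteins that copy DNA in S phase. They comprise 5 genes of origin licensing, 12 of the replicative helicase and its assembly, 5 of the polymerases and primase, 5 of the sliding clamp and its loader, 2 of strand joining, 4 of nucleotide supply, 2 of chromatin assembly and the regulator E2F1. They were chosen by gene symbol, with earlier results of these data known, and the choice used no measured value as a criterion. All 36 had a row among the 16405 genes of the knockdown count table and among the 12325 genes of the RB98# count table, and all 36 passed the low-count filter in both experiments.

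All libraries come from 1 cell line, Kasumi-1, a myeloblast line from leukemia that carries a translocation between chromosomes 8 and 21. The shRBPMS group (n = 3) was infected for 48 h with a lentivirus that carries an shRNA against RBPMS, an RNA-binding protein, and then selected for 48 h with puromycin. The shCtrl group (n = 3) received a scramble shRNA in the same way. The RB98# group (n = 2) received a compound that the labels name by this code alone, with neither dose nor duration given, and the DMSO group (n = 2) received the solvent. Neither the origin of the replicates (separate cultures or not) nor the number of shRNA sequences is labelled, so p-values measure the spread between these libraries, which may be technical. RNA from bulk cells was sequenced, so fewer cells in S phase and less of a transcript per cell cannot be told apart.

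Totals per library ranged over 24.0 to 34.4 M counts (M is 1e6) for the knockdown and 13.9 to 15.3 M for RB98#, and the smallest count of any of the 36 genes in any library was 127 and 245. By their library labels the knockdown samples form 2 sets of unstated meaning, label set 1 with replicate 1 of both groups and label set 2 with replicates 2 and 3. Mitochondrially encoded genes took 13.2% of counts in shRBPMS and 15.2% in shCtrl in label set 1, against 6.20% to 6.95% in label set 2 and 8.17% to 8.39% in the RB98# experiment. Replicates 2 and 3 lay far closer to each other than to replicate 1 (chi-square per degree of freedom 2.98 in shRBPMS and 2.98 in shCtrl, against 130 to 210). The RB98# pair of libraries gave 4.89 and the DMSO pair 2.24, so spread may be technical there too. RBPMS itself had 2.53, 3.34 and 3.08 CPM in shRBPMS libraries, against 20.4, 7.24 and 7.39 CPM in shCtrl libraries. CPM are counts per 1000000 counts, scaled by TMM factors within each experiment. The fit of edgeR with the group alone gave RBPMS a log2 change of -1.96 (adjusted p = 0.0846), and the fit blocked on replicate number (the blocked fit) gave -1.79 (adjusted p = 0.0106). The 8 listed Kasumi-1 markers were all tested in both experiments, with a summed level of 15159 to 16572 CPM in shRBPMS, 14460 to 18084 CPM in shCtrl, 16245 to 17198 CPM in RB98# and 14613 to 14713 CPM in DMSO. Most of these sums was MPO, at 11544 to 16362 CPM in the knockdown experiment and 12969 to 15650 CPM in the RB98# experiment. The other markers lay far lower, in the knockdown experiment from CD38 at 0.465 to 2.01 CPM up to KIT at 642 to 1030 CPM. TRH ranged there from 10.8 to 279 CPM. No listed erythroid or fibroblast marker (0 of 5 each) and 1 of 5 epithelial markers (EPCAM) was tested. Of 6 T and B cell markers 4 were tested in the knockdown, summing to 4.69 to 5.69 CPM in shRBPMS and 12.1 to 12.7 CPM in shCtrl, and 2 with RB98#, summing to 3.75 to 4.33 CPM in RB98# and 3.83 to 4.37 CPM in DMSO. The part of these markers and of the mitochondrial share in the results below was not tested.

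DNA replication starts at origins, where the origin recognition complex (ORC), CDC6 and CDT1 load rings of the MCM helicase in G1, a step called licensing that geminin blocks later in the cycle. In S phase CDC45 and the GINS complex join the ring and make it an active helicase, primase and polymerase alpha start each strand, and the other polymerases extend it while held by the clamp PCNA. Many of these genes are targets of E2F transcription factors, which act late in G1 when the retinoblastoma protein is inactivated, and their RNA is highest around the start of S phase. USP1, named in the title of the study, removes ubiquitin from PCNA.

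Promoter sequence is shown for 4 genes on which the comparisons below turn. MCM6 and GINS2 were called lower in the blocked fit of the knockdown, and GINS2 with RB98# as well. E2F1 was called in opposite directions in the experiments, and RRM2 was called lower with RB98#. Each sequence is the stretch of 250 bases before the transcription start given by RefSeq (GRCh38.p14), read 5′ to 3′ on the strand of the gene. Capitals mark matches to the E2F-type letters TTTCCCGC, TTTCGCGC, TTTGCCGC or TTTGGCGC and to CCAAT, the letters bound by NF-Y, each searched on both strands, and no E2F-type match overlaps a CCAAT match in these 4 windows.
MCM6 (chr2:135876444-135876693, minus strand): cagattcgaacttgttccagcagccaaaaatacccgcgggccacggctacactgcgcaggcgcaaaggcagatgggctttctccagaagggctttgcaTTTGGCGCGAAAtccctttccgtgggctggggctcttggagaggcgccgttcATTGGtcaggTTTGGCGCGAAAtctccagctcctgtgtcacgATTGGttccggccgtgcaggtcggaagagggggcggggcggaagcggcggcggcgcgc
GINS2 (chr16:85688955-85689204, minus strand): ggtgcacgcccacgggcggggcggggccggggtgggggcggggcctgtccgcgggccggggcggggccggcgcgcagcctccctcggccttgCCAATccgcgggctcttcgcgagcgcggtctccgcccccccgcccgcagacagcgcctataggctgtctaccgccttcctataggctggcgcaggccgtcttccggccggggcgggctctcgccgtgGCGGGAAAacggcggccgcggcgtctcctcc
E2F1 (chr20:33686386-33686635, minus strand): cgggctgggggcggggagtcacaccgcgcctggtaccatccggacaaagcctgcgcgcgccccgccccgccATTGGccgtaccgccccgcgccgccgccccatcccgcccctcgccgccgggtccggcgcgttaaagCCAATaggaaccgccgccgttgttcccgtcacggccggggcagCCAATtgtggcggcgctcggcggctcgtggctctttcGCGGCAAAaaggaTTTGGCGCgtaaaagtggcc
RRM2 (chr2:10122489-10122738, plus strand): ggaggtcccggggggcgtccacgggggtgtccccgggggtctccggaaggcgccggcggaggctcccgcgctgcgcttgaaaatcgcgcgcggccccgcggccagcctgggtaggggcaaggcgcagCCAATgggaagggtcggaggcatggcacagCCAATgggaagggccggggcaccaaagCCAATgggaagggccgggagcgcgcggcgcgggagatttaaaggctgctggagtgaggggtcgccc

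MCM6 holds 2 copies of the stretch TTTGGCGCGAAA, which begin 152 and 90 bases before the start and match the letters on both strands. GINS2 has 1 E2F-type match, 31 bases before the start, and E2F1 has 2, at 33 and 20 bases. RRM2 has 0 E2F-type matches in this window and 3 CCAAT. Windows were found for 33 of the 36 genes, and for a gene with more than 1 window the first listed was used. MCM4, MCM5 and GINS4 were not matched. An E2F-type match was present in 13 of the 33 windows (39.4%), against 4.43% of the 10563 windows matched to genes of the knockdown table and 2.79% of 27305 windows of all genes. CCAAT was present in 19 of 33 (57.6%), against 35.0% and 33.0%. Over all 42 windows listed for these genes the shares were 33.3% for E2F-type letters and 61.9% for CCAAT, against 2.79% and 32.0% of all windows. A match describes letters only, and its absence says only that these letters are not in this window. The windows shown do not stand for the other genes. Of genes called lower in the blocked fit of the knockdown, MCM2, CDC6 and TK1 have 0 E2F-type matches, and MCM3, PCNA and LIG1 have 1. Of genes called lower with RB98# and not in the knockdown, POLA2 has 1, and ORC1, GINS3 and RFC2 have 0.

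On GRCh38, MCM6 (ENSG00000076003) lies on chromosome 2 from 135839626 to 135876426, GINS2 (ENSG00000131153) on chromosome 16 from 85676198 to 85690073 and E2F1 (ENSG00000101412) on chromosome 20 from 33675683 to 33686404, all on the minus strand. RRM2 (ENSG00000171848) spans 10120698 to 10131419 of chromosome 2, plus strand. The windows shown above for GINS2 and RRM2 lie within these spans, as the start used there is not the outermost of the gene. TK1 (ENSG00000167900) lies on chromosome 17 from 78174075 to 78187233 and PCNA (ENSG00000132646) on chromosome 20 from 5114953 to 5126626, both on the minus strand, and POLA2 (ENSG00000014138) spans 65261762 to 65305589 of chromosome 11, plus strand. Exons of 12 of the 36 genes overlap exons of another gene in the tables (MCM2, MCM7, GINS2, GINS4, PRIM1, RFC4, RFC5, FEN1, LIG1, TYMS, CHAF1A and CHAF1B). Whether counting used strand is not given in the sources used here, so reads of these 12 and of their neighbours cannot be told apart there.

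The knockdown lowered the level of nearly all 36 genes by a similar and moderate amount, and this was called once the replicate number or the label set was in the fit. With the group alone 34 of the 36 had a log2 change below 0, with a median of -0.40 against 0.02 over all genes tested, of which 48.1% were below 0. That fit called 0 of the 36 (16 had an unadjusted p under 0.05, and DESeq2 called 6 lower and 0 higher, with 5.08% of all genes lower), where it called 1.34% of all genes lower. The blocked fit called 31 lower and 0 higher, with a median of -0.38, where it called 14.8% of all genes lower. The 5 not called were ORC1, GINS3, POLA2, RFC2 and RRM2. For 17 of the 36 all shRBPMS libraries were below all shCtrl libraries, and for 0 above, where 13.6% and 12.3% of all genes had such groups.

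The label sets also differed in these genes. For 14 of the 36 (ORC6, MCM2, MCM3, MCM5, MCM7, GINS3, POLA2, POLD1, RFC2, FEN1, RRM2, TK1, CHAF1B and E2F1) the log2 ratio between the sets was larger in size, in both groups, than the log2 change of the knockdown in the fit with the group alone. Label set 1 lay below label set 2 by a median log2 ratio of -0.26 over the 36 genes in shRBPMS (25 below 0, range -1.25 to 0.32) and of -0.30 in shCtrl (32 below 0, range -1.43 to 0.28), against 0.02 and -0.02 over all genes tested. Within a set the knockdown ratio of shRBPMS over shCtrl was below 0 for 33 genes in set 1 (median -0.29) and for 35 in set 2 (median -0.41), and 32 were below 0 in both. The mitochondrial share, which also differs between the sets, was not tested as a source of this shift. A covariate for label set gave 31 lower calls (18.4% of all genes), label set 2 alone 34 (21.7%), and a covariate for label set after summing the set 2 libraries of each group (the summed fit) 15 (8.62%). Leaving out any 1 library under that covariate, without summing, gave 30 to 34 (share of all genes not given). The 15 called in the summed fit were GMNN, CDC6, ORC6, MCM2, MCM4, MCM6, MCM10, CDC45, GINS2, PCNA, RFC3, LIG1, TK1, CHAF1A and E2F1, so 16 of the 31 genes of the blocked fit were not called there. Summing leaves 2 libraries a group, and the standard errors (SE) were larger. POLA1 had -0.37 (SE 0.12) in the summed fit and -0.35 (SE 0.06) in the blocked fit. A call missing in the summed fit therefore does not show that a gene did not change.

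**Figure D1:**
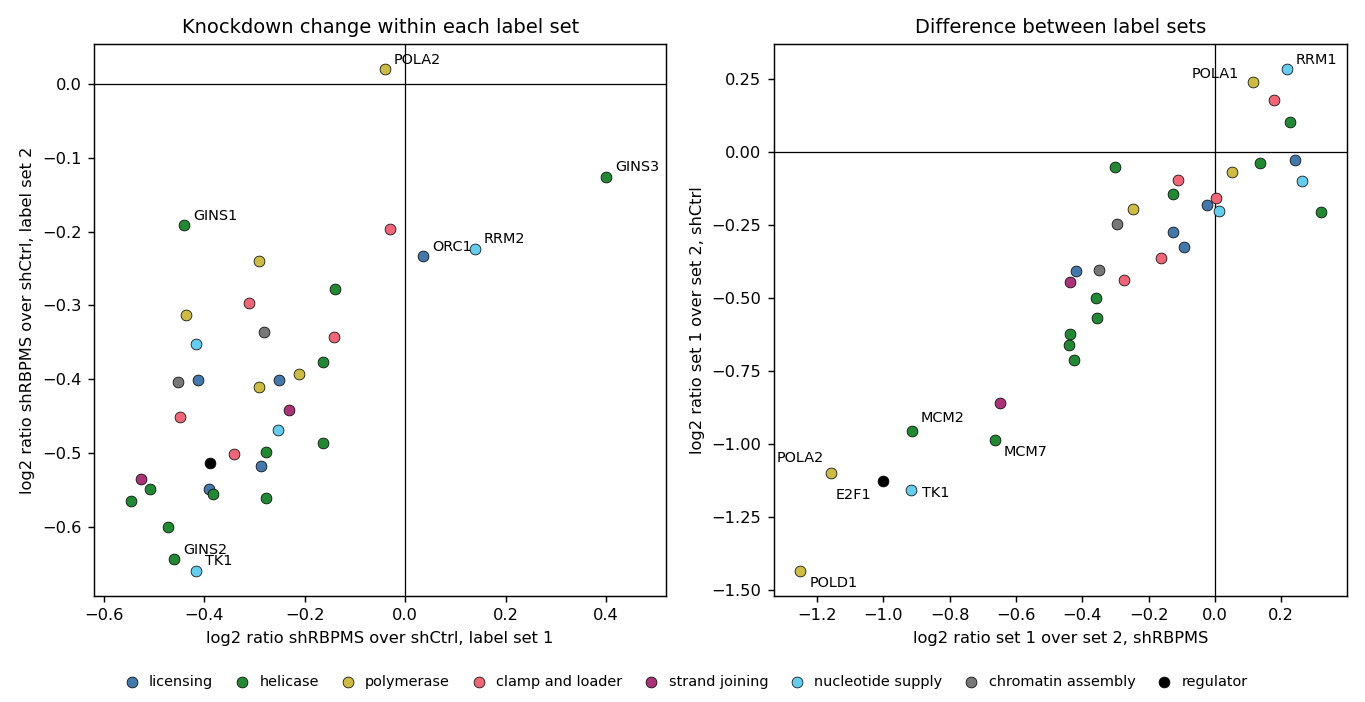
Left, log2 ratio of shRBPMS over shCtrl for each of the 36 genes within label set 1 (x axis) and label set 2 (y axis). Right, log2 ratio of label set 1 over label set 2 within shRBPMS (x axis) and within shCtrl (y axis). Points are genes coloured by role. Most points on the left lie below 0 on both axes (32 of 36), and on the right POLD1 lies lowest (-1.25 in shRBPMS and -1.43 in shCtrl).

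With RB98# the log2 changes had an SD over the 36 genes of 0.26, against 0.16 in the blocked fit of the knockdown. RRM2 (-1.05) and E2F1 (0.54) lay furthest out with RB98# and widen that SD. No SD over all genes is given for either experiment. Of the 36, 15 were called lower and 1 higher by edgeR with the group alone, where 17.3% of all genes were called lower and 20.5% higher. The median log2 change of the 36 was -0.13, against 0.00 over all genes tested, and 28 were below 0. RB98# libraries lay below DMSO libraries for 23 genes and above them for 4, where 34.0% and 34.3% of all genes had such groups, so a gap between groups of 2 is common here. The called genes ranged from -0.16 for MCM2 to -1.05 for RRM2, and the 1 called higher was E2F1 at 0.54. Without DMSO replicate 1 the count was 9 (1 higher, 8 lower) and without DMSO replicate 2 it was 9 (1 higher, 8 lower), where 23.1% and 22.2% of all genes were called. In fits of the same form RB98# and the knockdown gave 15 and 0 lower calls with the group alone, and 10 and 31 with the block. The blocked fit of RB98# called 11 of the 36 in all (35.9% of all genes) and DESeq2 13 (26.7%). MCM2, MCM4, GINS1, PCNA and FEN1 lost their RB98# calls in that blocked fit (adjusted p from 0.0526 to 0.0895). Calls with RB98# below are those of the fit with the group alone unless stated, while those of the knockdown are mostly of the blocked fit. The 7 genes called under every alternative tried, with each library left out in turn, were MCM10, GINS2, POLA2, PRIM1, RFC2, RRM2 and E2F1. Scaled by library totals alone, the median of all genes moved to -0.10, all genes split into 1690 higher (13.7%) and 3276 lower (26.6%) calls in place of 2530 and 2129, and 23 of the 36 were called lower and 1 higher, with E2F1 still higher (0.43).

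**Figure D2:**
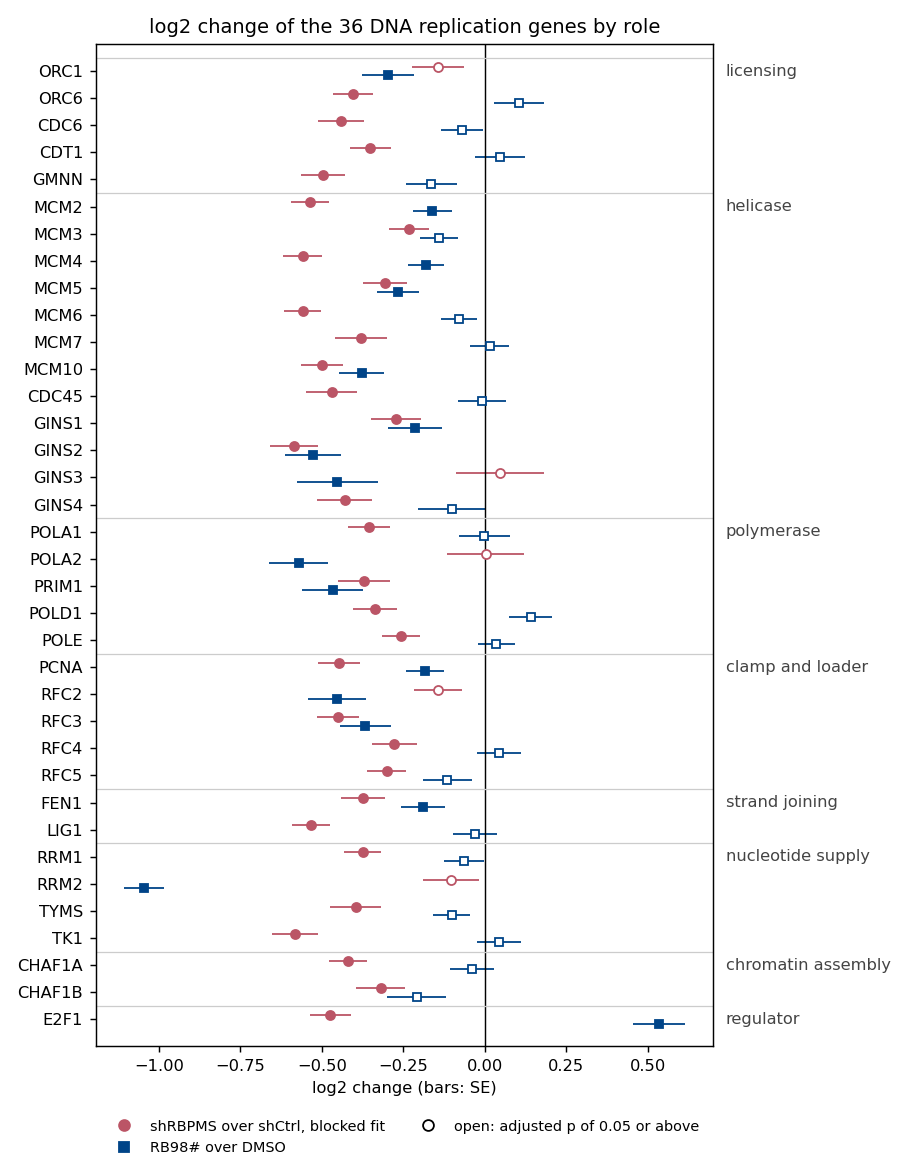
The log2 change of each of the 36 genes (x axis, bars are the SE), grouped by role, for shRBPMS over shCtrl in the blocked fit (circles) and RB98# over DMSO with the group alone (squares). Filled symbols passed an adjusted p of 0.05. Of the circles 34 lie below 0, down to -0.59 for GINS2, while squares spread from -1.05 for RRM2 to 0.54 for E2F1.

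Origin licensing genes were lower in the knockdown and for the most part not called with RB98#. GMNN encodes geminin, the inhibitor of licensing, and had the largest change of its role in the knockdown. GMNN had 54.0, 55.9 and 53.9 CPM in shRBPMS libraries, against 70.8, 82.0 and 78.6 CPM in shCtrl libraries. The groups did not overlap, and the log2 change was -0.50 in the blocked fit (SE 0.07, adjusted p = 0.00281) and -0.50 without the block (SE 0.12, adjusted p = 0.0878). Also called in the blocked fit were CDC6, the loader ATPase (-0.44), ORC6, an origin recognition subunit (-0.40), and CDT1, which brings the MCM ring to origins (-0.35), of which CDT1 was not called in the summed fit (adjusted p = 0.0879). With RB98# these 4 had log2 changes of -0.16 for GMNN, -0.07 for CDC6, 0.10 for ORC6 and 0.05 for CDT1, none called, with adjusted p from 0.104 to 0.678. ORC1, the largest origin recognition subunit, showed the opposite order of calls. ORC1 had 61.9 and 67.5 CPM in RB98# libraries, against 76.5 and 82.4 CPM in DMSO libraries (log2 change -0.30, SE 0.08, adjusted p = 0.00440), and the call was lost without DMSO replicate 2 (adjusted p = 0.158). In the knockdown ORC1 had 73.2, 63.0 and 60.9 CPM in shRBPMS libraries, against 71.4, 70.7 and 75.0 CPM in shCtrl libraries. These groups overlapped, and the blocked fit made no call (-0.14, adjusted p = 0.222).

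Helicase genes are the largest role, with 12 of the 36. In the blocked fit of the knockdown 11 of the 12 were called lower, from -0.23 for MCM3 to -0.59 for GINS2, of which 6 were called in the summed fit. With RB98# 7 of the 12 were called lower. GINS2 encodes a subunit of the GINS complex, which completes the active helicase. Its level was 30.7, 42.5 and 40.7 CPM in shRBPMS libraries, against 42.2, 65.2 and 64.7 CPM in shCtrl libraries, and 40.8 and 42.3 CPM in RB98# libraries, against 59.1 and 60.7 CPM in DMSO libraries. Its shRBPMS and shCtrl values overlapped only across label sets, and its RB98# and DMSO values did not overlap. GINS2 had a log2 change of -0.59 in the blocked fit (SE 0.07, adjusted p = 0.00215), of -0.60 without the block (SE 0.22, adjusted p = 0.234) and of -0.53 with RB98# (SE 0.09, adjusted p = 2.89e-05). The difference between these effects, RB98# minus knockdown, was 0.05 (SE 0.30, adjusted p = 0.949), and 0.04 (SE 0.11, adjusted p = 0.794) in the blocked fit.

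All 6 subunits of the MCM ring were called lower in the blocked fit of the knockdown. With RB98# 3 of them were called lower, and MCM3 and MCM6 lay below 0 without a call. MCM3, MCM5 and MCM7 were not called in the summed fit (adjusted p = 0.272, 0.164 and 0.113). Their blocked log2 changes were -0.54 for MCM2, -0.23 for MCM3, -0.56 for MCM4, -0.31 for MCM5, -0.56 for MCM6 and -0.38 for MCM7, all called. MCM6, shown because its promoter letters stand above, had 194, 217 and 206 CPM in shRBPMS libraries, against 283, 313 and 311 CPM in shCtrl libraries, without overlap (adjusted p = 0.00108 in the blocked fit and 0.0635 without the block). With RB98# MCM6 had 325 and 329 CPM, against 344 and 346 CPM with DMSO, a log2 change of -0.08 (SE 0.06, adjusted p = 0.279). RB98# gave calls for MCM2 (-0.16), MCM4 (-0.18) and MCM5 (-0.27), and no call for MCM3 (-0.14), MCM6 or MCM7 (0.01). Calls of the small changes with RB98# did not hold in every fit that leaves out 1 library, where a group keeps 1 library only. MCM2 was lost without RB98# replicate 1 or either DMSO replicate (-0.23 to -0.10 over the 4 fits that leave out 1 library), MCM4 without either DMSO replicate (-0.22 to -0.16), and MCM5 without DMSO replicate 1 (-0.37 to -0.18).

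Calls of the helicase partners also differed between the experiments. MCM10, a factor that helps to start the helicase, was called in both experiments, at -0.50 in the blocked fit (adjusted p = 0.00254) and -0.38 with RB98# (adjusted p = 0.000124), and CDC45, which joins the MCM ring, in the knockdown alone (-0.47 in the blocked fit, adjusted p = 0.00600, and -0.01 with RB98#). GINS1 was called in both (-0.27 and -0.21), but neither call held in every fit that leaves out a library. Under the label set covariate GINS1 was lost without shCtrl replicate 3 (-0.33 to -0.19 over the 6 such fits, highest adjusted p = 0.0527), and with RB98# it was lost without RB98# replicate 2 or either DMSO replicate (-0.27 to -0.17). GINS4 was called in the blocked fit (-0.43, adjusted p = 0.0109) and not with RB98# (-0.10, adjusted p = 0.467). Neither GINS1 nor GINS4 was called in the summed fit (adjusted p = 0.135 and 0.0689). GINS3 had 14.6, 11.7 and 11.7 CPM in shRBPMS libraries, against 11.1, 13.3 and 12.2 CPM in shCtrl libraries, and was the helicase gene not called in the knockdown (0.05, adjusted p = 0.831). With RB98# it had 16.7 and 21.3 CPM, against 27.2 and 24.7 CPM with DMSO, a call (-0.45, adjusted p = 0.00520) that was lost without RB98# replicate 1 or DMSO replicate 1 (-0.63 to -0.30).

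Of the 5 polymerase and primase genes 4 were called lower in the blocked fit of the knockdown and 2 with RB98#. The summed fit called 0 of the 5, with adjusted p of 0.0920 for PRIM1, 0.0661 for POLA1, 0.114 for POLD1 and 0.182 for POLE. The 4 were PRIM1, the catalytic primase subunit (-0.37), POLA1, the catalytic subunit of polymerase alpha (-0.35), POLD1 of the lagging strand polymerase delta (-0.34) and POLE of the leading strand polymerase epsilon (-0.26). PRIM1 had 20.6, 19.2 and 20.6 CPM in shRBPMS libraries, against 25.2, 24.7 and 28.1 CPM in shCtrl libraries, without overlap (adjusted p = 0.0149 in the blocked fit and 0.210 without the block). RB98# called PRIM1 too, with 31.2 and 29.1 CPM in RB98# libraries, against 41.4 and 42.0 CPM in DMSO libraries (-0.47, SE 0.09, adjusted p = 0.000376). POLA2, the accessory subunit of polymerase alpha, had the largest change of the role with RB98# and was not called in the knockdown. It had 32.9 and 35.8 CPM in RB98# libraries, against 52.2 and 49.8 CPM in DMSO libraries, without overlap (-0.57, SE 0.09, adjusted p = 2.57e-05). In shRBPMS libraries POLA2 had 5.50, 13.0 and 11.6 CPM, against 5.66, 11.4 and 12.8 CPM in shCtrl libraries, so label set 1 was low in both groups and the groups overlapped (0.00 in the blocked fit, SE 0.12, adjusted p = 0.992). The level of POLA2 in shCtrl was far below that in DMSO, although the experiments were scaled apart. The part of read assignment in this gap, and in the missing call, was not tested. The catalytic subunits POLA1 (-0.00), POLD1 (0.14) and POLE (0.04) were not called with RB98#, with adjusted p from 0.101 to 0.983.

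Of the 5 clamp and clamp loader genes 4 were called lower in the blocked fit and 3 with RB98#, and the summed fit of the knockdown called PCNA and RFC3. PCNA encodes the ring that holds polymerases on DNA. It had 193, 196 and 190 CPM in shRBPMS libraries, against 245, 268 and 279 CPM in shCtrl libraries, without overlap (-0.45 in the blocked fit, SE 0.06, adjusted p = 0.00356, and adjusted p = 0.0954 without the block). With RB98# PCNA had 283 and 275 CPM, against 311 and 323 CPM with DMSO, also without overlap but with a smaller log2 change (-0.18, SE 0.06, adjusted p = 0.0139). That call was lost without either DMSO replicate (-0.21 to -0.16), and the difference between the effects was 0.25 (SE 0.13, adjusted p = 0.294), or 0.25 with adjusted p = 0.0709 in the blocked fit. RFC2 is a subunit of the loader that opens the clamp. It had 36.7 and 37.6 CPM in RB98# libraries, against 50.3 and 51.4 CPM in DMSO libraries (-0.45, SE 0.09, adjusted p = 0.000255), and 31.1, 38.4 and 36.7 CPM in shRBPMS libraries, against 31.7, 44.0 and 42.1 CPM in shCtrl libraries. The knockdown groups of RFC2 overlapped, and it was not called there (-0.14 in the blocked fit, adjusted p = 0.190). Of the other loader subunits RFC3 was called in both (-0.45 in the blocked fit and -0.37 with RB98#, where it was lost without DMSO replicate 2, at -0.42 to -0.31), and RFC4 (-0.28) and RFC5 (-0.30) in the knockdown but not with RB98# (0.04 and -0.12).

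Of the strand joining genes LIG1 was called in the blocked fit and not with RB98#, and FEN1 was called in both, with its calls lost in the summed fit of the knockdown (adjusted p = 0.0855) and in 3 of the 4 RB98# fits that leave out a library. LIG1, the ligase that seals Okazaki fragments, had 84.6, 112 and 117 CPM in shRBPMS libraries, against 122, 167 and 165 CPM in shCtrl libraries, without overlap (-0.53 in the blocked fit, SE 0.06, adjusted p = 0.00130, and adjusted p = 0.213 without the block). With RB98# it had 118 and 123 CPM, against 120 and 126 CPM with DMSO, and was not called (-0.03, SE 0.07, adjusted p = 0.762). FEN1, the nuclease that trims flaps from these fragments, had 130 and 141 CPM in RB98# libraries, against 159 and 150 CPM in DMSO libraries (-0.19, adjusted p = 0.0271), a call lost without RB98# replicate 1 or either DMSO replicate (-0.25 to -0.14). In shRBPMS libraries FEN1 had 67.1, 105 and 105 CPM, against 78.8, 146 and 140 CPM in shCtrl libraries, which overlap across label sets (-0.37 in the blocked fit, adjusted p = 0.00867).

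Of the nucleotide supply genes RRM2 was called lower with RB98#, and RRM1, TK1 and TYMS were called lower in the blocked fit of the knockdown. RRM2 encodes the small subunit of ribonucleotide reductase, the enzyme that makes deoxyribonucleotides, and RRM1 the large subunit. RRM2 had 126 and 126 CPM in RB98# libraries, against 267 and 252 CPM in DMSO libraries. That is a log2 change of -1.05 (SE 0.06, adjusted p = 1.66e-12), and it was called under every alternative tried. In shRBPMS libraries RRM2 had 252, 208 and 212 CPM, against 229, 245 and 245 CPM in shCtrl libraries. The knockdown groups overlapped and RRM2 was not called, with -0.10 in the blocked fit (SE 0.08, adjusted p = 0.407), although the sets differed, with a log2 ratio of 0.14 in label set 1 and -0.22 in label set 2, and label set 2 alone called it lower (adjusted p = 2.81e-05). RRM1 was called in the blocked fit, not in the summed fit (adjusted p = 0.0514), and not with RB98#. It had 153, 132 and 131 CPM in shRBPMS libraries, against 204, 168 and 167 CPM in shCtrl libraries (-0.37 in the blocked fit, adjusted p = 0.00441), and 155 and 156 CPM in RB98# libraries, against 161 and 163 CPM in DMSO libraries (-0.06, adjusted p = 0.453).

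TK1 and TYMS, which make thymidylate by salvage and by synthesis, were called in the blocked fit of the knockdown and not with RB98#. In the summed fit TK1 was called (adjusted p = 0.0131) and TYMS was not (adjusted p = 0.0688). TK1 had 65.1, 123 and 123 CPM in shRBPMS libraries, against 87.0, 194 and 193 CPM in shCtrl libraries. Label set 1 was lower than label set 2 in both groups, and shRBPMS was lower within each set (-0.58 in the blocked fit, SE 0.07, adjusted p = 0.00196, and adjusted p = 0.488 without the block). With RB98# TK1 had 140 and 158 CPM, against 147 and 142 CPM with DMSO, which overlapped (0.04, adjusted p = 0.645). TYMS had a log2 change of -0.40 in the blocked fit (adjusted p = 0.0115) and of -0.10 with RB98# (adjusted p = 0.168).

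The chromatin assembly genes CHAF1A and CHAF1B encode the subunits of CAF-1, which places histones behind the fork. CHAF1A had 100.3, 123 and 123 CPM in shRBPMS libraries, against 137, 159.8 and 166 CPM in shCtrl libraries, without overlap (-0.42 in the blocked fit, adjusted p = 0.00296). With RB98# it had 110.2 and 115 CPM, against 111 and 119 CPM with DMSO, and was not called (-0.04, adjusted p = 0.681). CHAF1B had 38.9 and 41.6 CPM in RB98# libraries, against 47.7 and 45.3 CPM in DMSO libraries, which did not overlap and did not pass (-0.21, adjusted p = 0.0714). In the knockdown CHAF1B had 32.1, 43.1 and 38.7 CPM in shRBPMS libraries, against 39.0, 50.3 and 53.0 CPM in shCtrl libraries (-0.32 in the blocked fit, adjusted p = 0.0210, and adjusted p = 0.122 in the summed fit).

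E2F1, the transcription factor that drives many of these genes, was the one gene of the 36 called in opposite directions. It had 48.1, 94.8 and 97.6 CPM in shRBPMS libraries, against 62.9, 135 and 140 CPM in shCtrl libraries, so shRBPMS was lower within each label set (log2 ratio -0.39 in set 1 and -0.51 in set 2) while the groups overlapped across sets. The blocked fit gave -0.47 (SE 0.06, adjusted p = 0.00255), and the fit without the block -0.49 (SE 0.38, adjusted p = 0.614). E2F1 had 85.1 and 97.1 CPM in RB98# libraries, against 61.2 and 64.3 CPM in DMSO libraries, and rose there (0.54, SE 0.08, adjusted p = 1.03e-05). The authors' deposited table gives E2F1 a log2 change of -0.49 (adjusted p = 0.0484) in the knockdown and of 0.54 (adjusted p = 1.24e-05) with RB98#, and RRM2 one of -0.13 (adjusted p = 0.731) and of -1.04 (adjusted p = 8.81e-43). Of the 36 genes, the deposited adjusted p was under 0.05 for 12 lower and 0 higher in the knockdown (11.3% of all genes in either direction). With RB98# it was so for 11 lower and 1 higher (22.2%).

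**Figure D3:**
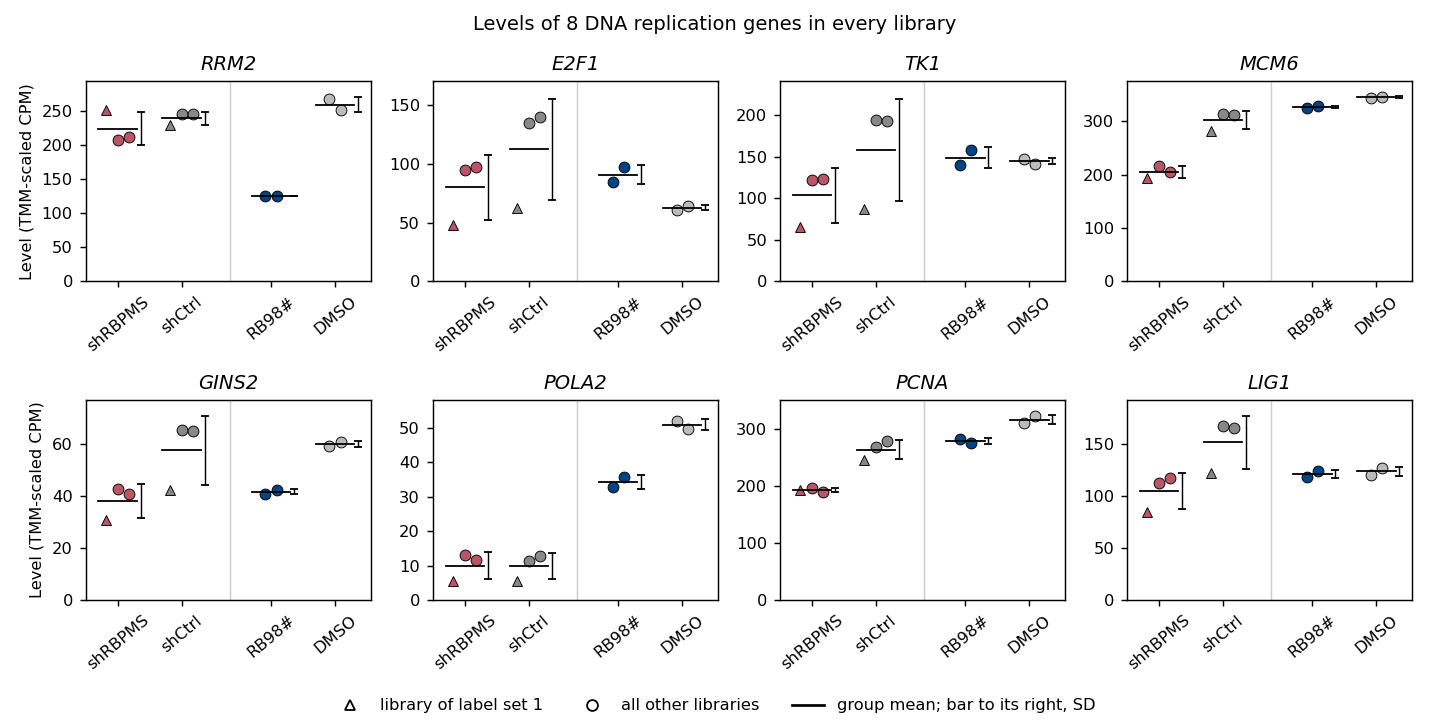
Level in every library (y axis, TMM-scaled CPM, from 0) of 8 of the genes, for shRBPMS, shCtrl, RB98# and DMSO. Points are libraries, triangles those of label set 1, lines the group mean, and the bar to its right the SD (n = 3, 3, 2 and 2). The experiments were scaled apart, so levels compare only left or right of the grey line. RRM2 lies at 126 and 126 CPM in RB98# against 267 and 252 CPM in DMSO, and MCM6 at 194 to 217 CPM in shRBPMS against 283 to 313 CPM in shCtrl.

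The difference of both effects, RB98# over DMSO minus shRBPMS over shCtrl, was tested over the 12126 genes in both tables. With the group alone it called 1 of the 36, RRM2, at -0.96 (SE 0.15, adjusted p = 0.00984), where it called 3.36% of all genes lower and 4.79% higher. RRM2 was not called without any one RB98# or DMSO library (adjusted p from 0.0532 to 0.0628, lowest in size at -0.92), and kept its call without any one knockdown library (-1.01 to -0.88, adjusted p at most 0.0263). Without shCtrl replicate 1, MCM6 (0.51, adjusted p = 0.0300) and CDC6 (0.46, adjusted p = 0.0342) were called as well. Of the 36 differences 30 were above 0, with a median of 0.29 against -0.01 over all genes, and with library totals alone 23 were above 0, with a median of 0.18 against -0.12.

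With the replicate block the difference was called for 19 of the 36, 16 above 0 and 3 below, where 18.9% of all genes were called above and 18.2% below. The 3 below were RRM2 (-0.96, adjusted p = 0.000502), POLA2 (-0.59, adjusted p = 0.0128) and RFC2 (-0.33, adjusted p = 0.0481). The largest above were E2F1 (0.99, SE 0.10, adjusted p = 0.000193), TK1 (0.61, SE 0.11, adjusted p = 0.00320), ORC6 (0.49, SE 0.10, adjusted p = 0.00538) and LIG1 (0.49, SE 0.09, adjusted p = 0.00383). By role the calls were 3 of 5 in licensing, all above 0, 5 of 12 in the helicase, all above 0 (MCM2, MCM4, MCM6, MCM7 and CDC45), 2 above and 1 below of 5 polymerase genes, and 2 above and 1 below of 4 nucleotide genes. All 19 kept their call and sign under the label set covariate with any one knockdown library left out. Over the 36 genes that covariate called 24 (44.9% of all genes), label set 2 alone 25 (48%), the summed libraries of set 2 with the covariate 16 (37.4%), and DESeq2 2 (14.8%). The 10 genes lower in both the blocked fit of the knockdown and the RB98# fit with the group alone (MCM2, MCM4, MCM5, MCM10, GINS1, GINS2, PRIM1, PCNA, RFC3 and FEN1) held 6 helicase genes, the 20 lower in the knockdown without a call with RB98# held 5 helicase and 4 licensing genes, and the 5 called lower with RB98# and not in the knockdown were ORC1, GINS3, POLA2, RFC2 and RRM2. With the block in both fits 5 genes were lower in both (MCM5, MCM10, GINS2, PRIM1 and RFC3) and 25 in the knockdown without a call with RB98#. With the group alone in both fits 0 were lower in both. The share of all genes in such overlaps is not given, so these counts describe the 36 genes only. A gene called in one experiment and not in the other is not thereby shown to differ. Of the 5 called lower with RB98# and not in the knockdown, the difference itself was called in the blocked fit for POLA2, RFC2 and RRM2. The level of POLA2 was low in all knockdown libraries, as given above.

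**Figure D4:**
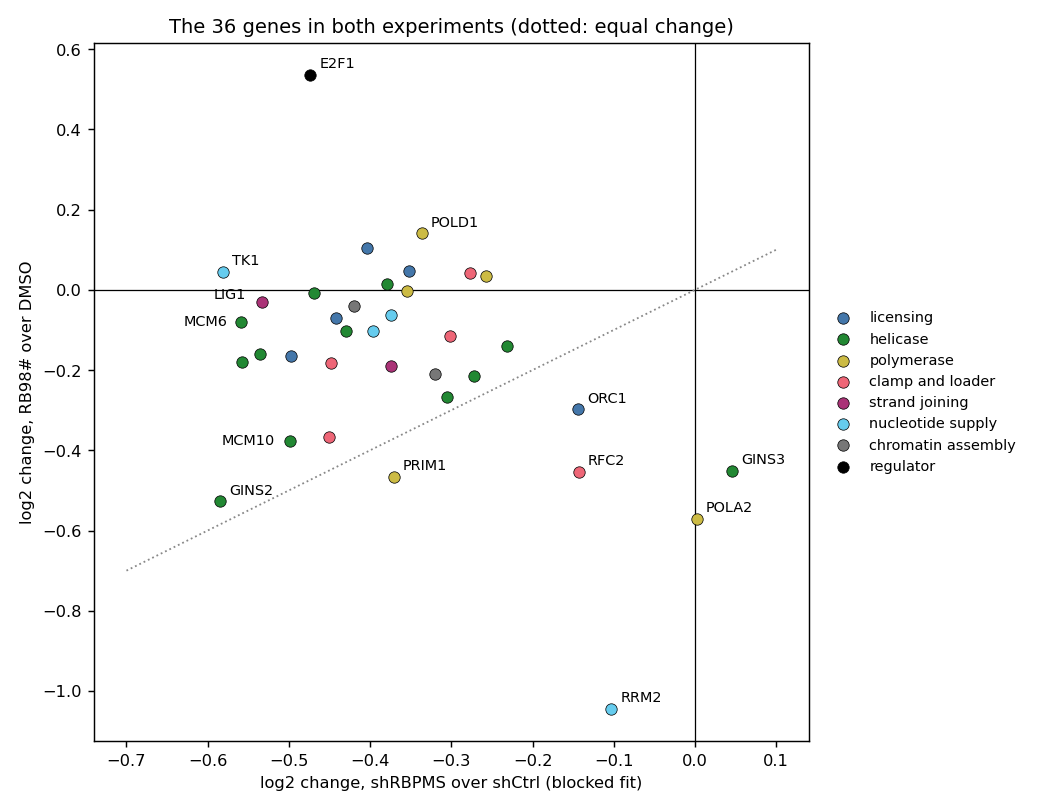
Each of the 36 genes by its log2 change for shRBPMS over shCtrl in the blocked fit (x axis) and for RB98# over DMSO with the group alone (y axis), coloured by role, with a dotted line at equal change. Most points lie left of the line, TK1, LIG1 and MCM6 near 0 on the y axis, while RRM2 (-1.05), POLA2 (-0.57) and GINS3 (-0.45) lie low with RB98# and near 0 in the knockdown, and E2F1 lies alone at 0.54.

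Another 74 genes of the same roles, all tested in both experiments, are given for comparison. The knockdown fit with the group alone called 1 of the 74 higher and 0 lower (20 had an unadjusted p under 0.05), where 0.629% of all genes were called higher, and the blocked fit 6 higher and 33 lower (median -0.18), where 13.3% and 14.8% were. With RB98# 10 of the 74 were called higher and 21 lower (median -0.11), where 20.5% of all genes were called higher and 17.3% lower. The gene called without the block was RRM2B, the p53-inducible small subunit of ribonucleotide reductase. It had 41.4, 35.2 and 31.5 CPM in shRBPMS libraries, against 17.7, 18.4 and 16.6 CPM in shCtrl libraries, without overlap (1.04, SE 0.15, adjusted p = 0.0309, and adjusted p = 0.000741 in the blocked fit). Without the block its call was lost when any one library other than shCtrl replicate 1 was left out (0.92 to 1.11, adjusted p at most 0.174). With RB98# RRM2B had 36.3 and 33.1 CPM, against 27.2 and 28.0 CPM with DMSO (0.33, adjusted p = 0.0106), a call lost without RB98# replicate 1 or either DMSO replicate (0.25 to 0.39). RRM2 itself, as given above, was called with RB98# and not in the blocked fit.

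The largest falls of these 74 in the blocked fit were UHRF1, which binds hemimethylated DNA behind the fork (-0.84, adjusted p = 0.000442), the activator E2F2 (-0.78, adjusted p = 0.000897) and ATAD5, which unloads PCNA (-0.62, adjusted p = 0.00714). With RB98# they were the origin recognition subunit ORC5 (-0.79, adjusted p = 1.46e-05), the repressor E2F8 (-0.74, adjusted p = 0.000106) and DSCC1, of an alternative clamp loader (-0.73, adjusted p = 1.03e-06). RB98# raised RNASEH2B, a subunit of an RNase that removes ribonucleotides from DNA (0.47), RB1, the retinoblastoma protein (0.46), and POLH, a translesion polymerase (0.39), the last being lost without RB98# replicate 1 or DMSO replicate 2 (0.26 to 0.51). USP1 had 132, 149.9 and 138 CPM in shRBPMS libraries, against 174, 171 and 166 CPM in shCtrl libraries (-0.28 in the blocked fit, adjusted p = 0.0176), and was not called with RB98# (-0.03, adjusted p = 0.785).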

How the data were processed

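RNA-seq of Kasumi-1 cells was analysed in 10 of the 14 listed samples, and 4 were not analysed here. Per the submitters' processing notes DESeq2 1.32.0, featureCounts 2.0.1, HISAT2 2.2.1, fastp 0.22.0 and StringTie were used with GRCh38, with no step assigned to any. Per the file headers and the values, the deposited values used are unnormalised counts for each gene and library. The smallest summed count of a gene is 27 in the knockdown table and 50 in the RB98# table, and 112 repeated lines of 12437 in the RB98# table were dropped. The deposited log2 fold changes and p-values are the authors' own comparison and are quoted only where named. Another 10 columns with per-library values stayed out.

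Counts were tested with edgeR 4.0.16 (R 4.3.3, quasi-likelihood F test, two-sided, TMM, filterByExpr with a count of 10 and a total of 15) over all genes, with Benjamini-Hochberg adjustment at 0.05 and the group alone as design. SE is the size of the log2 change over the square root of F. Alternatives were the replicate block, DESeq2 1.42.0, other scaling and filters, the label set as a covariate, and leaving out each library. Same-numbered knockdown libraries deviated together (correlation 0.852, 0.772 and 0.800 over 10606 genes), so the blocked value stands beside the main one. Replicate 2 against 3 gave 0.767 and 0.776, so this follows the label set.

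The 36 genes, the other 74 and the tests were chosen with earlier results of these data known. All 36 genes are named. Values of every library are given, in each role, for the gene with the largest absolute log2 change in each experiment, for PCNA and for up to 4 genes per sign called in the difference. Of the other 74, up to 3 genes per direction and experiment with the largest called log2 change are named, and RBPMS and USP1 as targeted gene and PCNA deubiquitinase. Library values of GINS3, MCM6 and RRM1 were added after they were seen. Promoters were 250-base windows of RefSeq. The scripts were tested on simulated counts.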

Additional observations from a re-analysis of the deposited data

Results flagged for a closer look

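RRM2 responded differently to the compound and to the knockdown in the direct test of that difference. Its log2 change with RB98# minus its log2 change in the knockdown was -0.96 (SE 0.15, adjusted p = 0.00984, edgeR over 10 libraries). Both RB98# libraries, at 126 and 126 CPM, lay below both DMSO libraries, at 267 and 252 CPM, while the shRBPMS libraries at 208 to 252 CPM overlapped the shCtrl libraries at 229 to 245 CPM. The call was lost without any one RB98# or DMSO library (adjusted p from 0.0532 to 0.0628). Each perturbation was run in its own experiment, so perturbation and experiment cannot be told apart in this difference.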

How the results depend on the processing

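With the group alone the knockdown called 0 of the 36 genes, and 0 without any one library. The count was 31 with the replicate block, 31 with the label set as a covariate, 34 in label set 2 alone, 15 with that covariate after summing set 2, 6 with DESeq2, and 30 to 34 with the label set as a covariate and one library left out, a choice made after the data were seen. The replicate block thus separates a count of 0 from 31, and it takes replicates 2 and 3 as separate cultures, which the labels do not state. The fits with the label set covariate and with label set 2 alone take them so as well. Of these counts only the 15 of the summed fit does not rest on that. For RB98# the count of 16 went to 9 to 17 without one library, to 11 with the replicate block (numbers that share no deviations there, correlation -0.0585) and to 13 with DESeq2, and the median of -0.13 moved to -0.23 with library totals alone. For the difference the count of 1 became 19 with the replicate block, 24 with the label set as a covariate, 25 in label set 2 alone, 16 with set 2 summed, 2 with DESeq2, 0 to 3 without one library, and 22 to 25 (23 without shRBPMS replicate 2 or 3) with the label set as a covariate and one library left out. No result changed sign with a call. With size factors of DESeq2's kind in edgeR and with no low-count filter all calls of the 36 genes stayed as they were. With 2 libraries a group, 9 of the 16 RB98# calls were lost when some single library was left out. The smallest count of any of the 36 genes in a library was 127.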

Other observations

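Some replication genes had very different levels in the 2 control groups, although both come from Kasumi-1 cells. POLA2 was at 5.66 to 12.8 CPM in shCtrl and at 49.8 to 52.2 CPM in DMSO, and TYMS at 104 to 127 CPM and at 313 to 326 CPM. The gap was wider for CHTF8, an alternative clamp loader subunit, at 1.03 to 2.17 CPM in shCtrl and 87.4 to 88.8 CPM in DMSO, and for RNASEH2A, a subunit of an RNase that removes ribonucleotides from DNA, at 0.394 to 0.542 CPM and 36.6 to 37.5 CPM. These 4 genes were picked after their values were seen, and the tables were scaled apart. Exons of TYMS overlap those of other genes in the tables, and those of POLA2 overlap none. CHTF8 and RNASEH2A were not examined for overlap. How reads were assigned in each table is not given in the sources used here, and its part in these gaps was not tested.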
